A study of Mus musculus with 14 samples.

Results

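The 10 genes described here encode sugar transporters (Slc2a1, Slc2a2, Slc2a3, Slc2a5 and Slc5a1) and isoforms of 3 enzyme steps of glucose use: hexokinase (Hk1 and Hk2), pyruvate kinase (Pkm) and lactate dehydrogenase (Ldha and Ldhb). They were selected on their values in these same libraries, namely the difference between Isx-9 and DMSO at 6 hours and at 6 days and its distribution over cell states. Their values are therefore given as a description. Where the fit over all genes called a member, the call, its direction and how it moved between settings are stated, and nothing is read from them. All 10 were found among the 27399 genes of the bulk count files and the 20707 genes of the single-cell matrices.

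The libraries came from mouse intestinal organoids, cultures of gut epithelium that grow from its stem cells. Isx-9 is an isoxazole small molecule known for promoting neuronal differentiation, and the title of the series names enteroendocrine differentiation as its question. Bulk RNA-seq was made of Lgr5-EGFP knock-in stem cells that had been sorted from organoids exposed for 6 hours to 0.05% DMSO (2 libraries) or to 25 µM Isx-9 (2 libraries). Single-cell RNA-seq was made of whole organoids, with 1 library each of untreated wild type, untreated Chgb-mCherry knock-in reporter, reporter after 6 days of 0.05% DMSO and reporter after 6 days of 25 µM Isx-9. Treatment began at day 2 after passaging, in medium with EGF, Noggin and R-spondin1. The labels do not say whether the 2 bulk libraries of a group came from separate cultures, so a bulk p-value speaks of the spread among these 4 libraries, which may be technical. In single cells, intervals cover counting error only, since no condition had a second library.

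Bulk libraries held 18909542 to 19487264 counts. At this like depth, 21237 and 20942 genes had a count in the DMSO libraries and 23881 and 23695 in the Isx-9 libraries. A rise from near 0 with Isx-9 was therefore not particular to the genes described here. The single-cell matrices held 116046871 to 139401464 UMIs, and 8220 to 9415 cells per library were used, with medians of 8963 UMIs per cell in the Isx-9 library and 12394 to 14619 in the other 3. The summed level of 9 stem cell markers was 10063 and 10174 CPM in the DMSO bulk libraries and 6549 and 7812 CPM in the Isx-9 libraries, and none of these markers was at 0. Clusters 16 to 21 held at most 2 cells each of any other library than Isx-9, and a pair of clusters led by Xist, numbered 0 and 2, held mostly wild-type cells. A cluster of 1 library may reflect that library and not a cell type. Any 2 matrices shared 32 to 52 cell barcodes.

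Glucose enters intestinal epithelial cells from the lumen with sodium through SGLT1 (Slc5a1) and leaves towards the blood through GLUT2 (Slc2a2), while fructose enters through GLUT5 (Slc2a5). GLUT1 (Slc2a1) and GLUT3 (Slc2a3) are facilitative carriers that supply the cell's own metabolism, GLUT3 being the high-affinity carrier of neurons. Hexokinase traps glucose as glucose 6-phosphate, pyruvate kinase makes pyruvate, and lactate dehydrogenase interconverts pyruvate and lactate. Its A subunit (Ldha) is common in glycolytic tissue and its B subunit (Ldhb) in tissues that oxidise lactate. Isoforms of these enzymes differ between tissues and between proliferating and differentiated cells.

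The members lie on GRCm38.p6 as follows. Slc2a1 is at chr4:119108745-119137330, Slc2a2 at chr3:28697903-28728361, Slc2a3 at chr6:122727809-122802363, Slc2a5 at chr4:150119344-150144168 and Slc5a1 at chr5:33104219-33162699. Hk1 is at chr10:62268855-62379920, Hk2 at chr6:82725025-82774454, Pkm at chr9:59656576-59679372, Ldha at chr7:46842274-46855627 and Ldhb at chr6:142490249-142507957. RefSeq promoter windows were matched for 9 of the 10 members (all but Slc2a3), 12 windows in all. The 250 bases before each start that had a window were searched on both strands, and starts are numbered among these windows only. Both Ldha windows lie inside the span given above, so the outer end of that span, chr7:46842274, had no window. The windows of the hexokinase and lactate dehydrogenase pairs are shown because their counts moved unequally at 6 hours. They are written 5′ to 3′ in the direction of transcription with GRCm38.p6 coordinates. Capitals mark ACGTG on either strand, a form of the core that hypoxia-inducible factors bind in known targets. The other form of that core, GCGTG, was neither searched for nor marked.
Hk1, first start, chr10:62379909-62380158, minus strand: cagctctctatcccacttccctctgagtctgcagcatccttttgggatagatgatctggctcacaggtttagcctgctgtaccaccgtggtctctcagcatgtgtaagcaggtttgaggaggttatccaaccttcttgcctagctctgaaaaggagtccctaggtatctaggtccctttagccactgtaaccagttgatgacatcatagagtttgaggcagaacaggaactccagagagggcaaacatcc
Hk1, second start, chr10:62340422-62340671, minus strand: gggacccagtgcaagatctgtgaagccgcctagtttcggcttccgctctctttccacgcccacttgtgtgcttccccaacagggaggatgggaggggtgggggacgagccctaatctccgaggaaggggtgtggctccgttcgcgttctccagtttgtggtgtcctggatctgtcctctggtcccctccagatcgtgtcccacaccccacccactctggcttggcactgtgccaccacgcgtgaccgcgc
Hk2, chr6:82774455-82774704, minus strand: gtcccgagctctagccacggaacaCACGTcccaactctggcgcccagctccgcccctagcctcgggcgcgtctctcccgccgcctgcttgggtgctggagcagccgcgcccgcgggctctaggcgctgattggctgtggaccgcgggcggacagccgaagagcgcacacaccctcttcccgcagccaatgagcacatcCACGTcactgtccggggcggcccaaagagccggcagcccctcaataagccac
Ldha, first start, chr7:46845554-46845803, plus strand: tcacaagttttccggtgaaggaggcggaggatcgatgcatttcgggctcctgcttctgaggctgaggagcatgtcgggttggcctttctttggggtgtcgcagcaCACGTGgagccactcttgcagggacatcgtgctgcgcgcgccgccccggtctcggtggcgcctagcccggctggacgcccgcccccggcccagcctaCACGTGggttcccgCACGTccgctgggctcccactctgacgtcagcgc
Ldha, second start, chr7:46846832-46847081, plus strand: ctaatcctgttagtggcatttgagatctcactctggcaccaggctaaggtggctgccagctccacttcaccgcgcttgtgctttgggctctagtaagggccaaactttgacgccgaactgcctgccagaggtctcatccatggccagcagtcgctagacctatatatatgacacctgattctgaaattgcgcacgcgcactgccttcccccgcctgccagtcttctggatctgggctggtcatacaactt
Ldhb, chr6:142507958-142508207, minus strand: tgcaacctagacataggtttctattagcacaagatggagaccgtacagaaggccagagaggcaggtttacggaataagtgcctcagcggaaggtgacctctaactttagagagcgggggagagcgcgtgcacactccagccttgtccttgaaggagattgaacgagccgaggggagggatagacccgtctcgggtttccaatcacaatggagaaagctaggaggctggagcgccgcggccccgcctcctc
ACGTG lay in 5 of the 12 windows, against 16.6% of 32851 RefSeq windows of the same length. The first Ldha window held 3 separate stretches with it. In 2 of these it was part of the palindromic E-box CACGTG, which 6.02% of all windows held. The Hk2 window held 2 stretches, and the windows of Slc2a1, Slc5a1 and the second Pkm start held 1 each. Neither Hk1 window, the second Ldha window nor the Ldhb window held ACGTG. The unsearched form GCGTG can be read, on either strand, in the second Hk1, second Ldha and Ldhb windows. A window without ACGTG is therefore not a window without the core. The windows of these genes also differed in base composition. The first Hk1 window had 1 CpG and 49.6% G and C, the second Hk1 window 14 CpGs and 62.8%, the Hk2 window 25 CpGs and 69.6%, the first Ldha window 25 CpGs and 67.2%, the second Ldha window 9 CpGs and 54.4%, and the Ldhb window 14 CpGs and 56.4%. No window of a member held the MEF2 consensus (in 2.92% of all windows) or GTTAAT, a half-site of HNF1 (in 6.43%). A match is a description of letters and was not related to any measurement.

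In sorted stem cells after 6 hours of Isx-9, Hk1, Ldhb and Slc2a3 had higher counts while the isoforms that dominated with DMSO, Hk2, Ldha and Slc2a1, had nearly the same or slightly lower counts. Levels here are CPM, counts scaled to library size with TMM factors, which are comparable between libraries for 1 gene but not between genes, since they are not divided by transcript length. Differences are log2 Isx-9 over DMSO from the edgeR fit over all genes, with their standard error (SE) and n = 2 against 2. The fit itself gives no SE. It was worked back from the F statistic of the fit's test, as the absolute difference over the square root of F. An SE therefore holds no more than that test does, and the members were chosen on this same contrast.

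Hk1, the hexokinase of most tissues including brain, stood at 27.6 and 20.99 CPM in the DMSO libraries and at 96.1 and 96.2 CPM in the Isx-9 libraries. Both Isx-9 libraries were above both DMSO libraries, by 1.98 on the log2 scale (SE 0.12). Hk2, the insulin- and hypoxia-responsive hexokinase of muscle and of many proliferating cells, stood at 144 and 140 CPM with DMSO and at 135 and 144 CPM with Isx-9, so the groups overlapped (log2 difference -0.02, SE 0.08). Hk1 made up 16.1% and 13.1% of the counts of both hexokinases with DMSO and 41.5% and 40.0% with Isx-9. Transcript length does not cancel in such a share or in its change. It does cancel in the change of the ratio of Hk1 to Hk2, which moved by 2.02 on the log2 scale.

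Ldhb had 3 and 6 counts in the DMSO libraries and 291 and 201 in the Isx-9 libraries, or 0.161 and 0.331 CPM against 14.5 and 10.0 CPM. The groups did not overlap (log2 difference 5.61, SE 0.43). Ldha stood at 1526 and 1481 CPM with DMSO and at 1121 and 1353 CPM with Isx-9, with both Isx-9 libraries below both DMSO libraries (log2 difference -0.28, SE 0.09). Ldhb was 0.0106% and 0.0223% of lactate dehydrogenase counts with DMSO and 1.28% and 0.736% with Isx-9, so Ldha held most of them in each of the 4 libraries. Pkm, whose 2 splice forms the gene counts do not separate, stood at 1657 and 1478 CPM with DMSO and at 1408 and 1607 CPM with Isx-9, with overlapping groups.

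Slc2a3 had 3 and 5 counts with DMSO and 55 and 71 with Isx-9, or 0.161 and 0.275 CPM against 2.74 and 3.54 CPM (log2 difference 3.81, SE 0.59). Slc2a1 stood at 141 and 124 CPM with DMSO and at 114 and 127 CPM with Isx-9, and its groups overlapped. Slc2a3 was 0.114% and 0.222% of the counts of these carriers with DMSO and 2.34% and 2.72% with Isx-9. Of the absorptive transporters, Slc5a1 (150 and 167 CPM against 130 and 150 CPM) and Slc2a2 (0.969 and 2.64 CPM against 1.49 and 2.89 CPM) overlapped between groups. Slc2a5 stood at 4.95 and 5.95 CPM with DMSO and at 6.98 and 8.98 CPM with Isx-9, without overlap (log2 difference 0.55, SE 0.27).

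**Figure D1:**
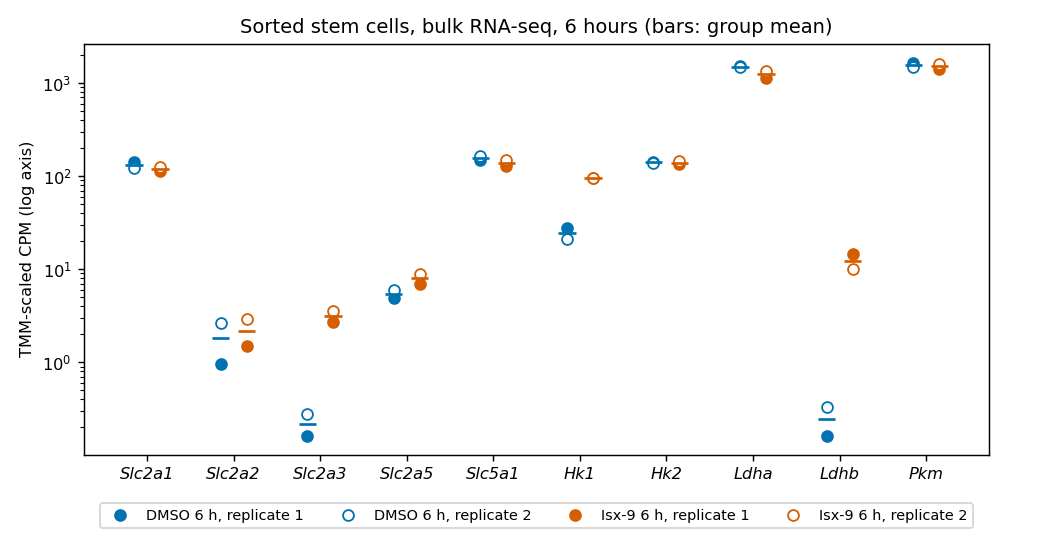
TMM-scaled CPM on a log axis of the 10 genes in the 4 bulk libraries of sorted stem cells (filled points replicate 1, open points replicate 2, bars the group mean). Hk1 lay at 20.99 and 27.6 with DMSO and at 96.1 and 96.2 with Isx-9, and Ldhb at 0.161 and 0.331 and at 14.5 and 10.0, while Hk2 and Pkm overlapped between groups.

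At an adjusted p under 0.05, 3 of the 10 members were called higher (Hk1, Ldhb and Slc2a3) and 1 lower (Ldha). Of all 17418 genes tested, 47.3% were called, 27.3% higher and 20% lower. Since this contrast chose the members, nothing is read from their count. Slc2a3 and Ldhb passed the filter on low counts only through their Isx-9 libraries. Ldha was no longer among the calls when the first DMSO library was left out (log2 difference -0.27) or when the first Isx-9 library was (log2 difference -0.14). In the same libraries the summed level of 7 mesenchymal markers was 2.15 and 2.53 CPM with DMSO and 20.2 and 27.4 CPM with Isx-9, that of 11 tuft markers (10 of them in the files) was 16.2 and 18.5 against 37.9 and 45.6 CPM, and that of 21 enteroendocrine markers 125 and 193 against 138 and 161 CPM. That of 10 regenerative markers was 153 and 203 against 246 and 255 CPM, and that of 6 endothelial and glial markers (5 of them in the files) 3.12 and 4.08 against 8.18 and 8.62 CPM. The part of other cells in the member values was not tested, and in bulk fewer cells of a type and less RNA per cell cannot be told apart.

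Around the members, genes of the same pathways were tested in the same fit, from 11 lists with 116 genes, 111 of them tested. Of these, 29 rose and 39 fell with Isx-9, with a median log2 difference of -0.12 against 0.02 over all genes. Of 7 other facilitative carriers of the Slc2a family, 5 rose and none fell (median 1.86). Slc2a6, a lysosomal carrier, rose by 4.25 on the log2 scale (SE 0.59, edgeR adjusted p = 0.000161). Slc2a4, the insulin-responsive GLUT4, rose by 3.65 and Slc2a10 by 3.25, from means of 0.192 and 0.491 CPM with DMSO. Slc2a6 (7 and 2 counts with DMSO) and Slc2a4 (2 and 5) passed the filter on low counts only through their Isx-9 libraries. Slc2a10 (7 and 11) would not have passed on its DMSO libraries alone either. A gene let in that way could hardly have been called lower, which limits the counts of calls in this list. Slc2a13, the proton and myo-inositol carrier, rose by 1.86 but not without Isx-9 replicate 1. Among 5 other sodium-coupled carriers, Slc5a11 rose from 0.136 to 0.997 CPM and Slc5a2 (SGLT2) fell from 22.3 to 16.1 CPM. Slc5a11, with 3 and 2 counts with DMSO, also passed the filter only through its Isx-9 libraries. Slc5a11 was not called without any 1 of the 4 libraries, and Slc5a2 not without DMSO replicate 2 or either Isx-9 library.

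Of 17 core glycolytic enzymes, 5 rose and 7 fell (median -0.03). The neuronal enolase Eno2 rose by 4.65 on the log2 scale, from 0.108 ± 0.152 to 2.89 ± 0.702 CPM (mean ± SD, n = 2), and the muscle forms Eno3 and Pgam2 rose by 1.07 and 1.44, Pgam2 not without DMSO replicate 1 or either Isx-9 library. Eno2 had 4 and 0 counts with DMSO and passed the filter on low counts only through its Isx-9 libraries. The dominant enolase Eno1 stood at means of 1246 CPM with DMSO and 1218 CPM with Isx-9 and was not called. Among those that fell, Tpi1, Pgk1 and Pgam1 fell by 0.40, 0.34 and 0.46. Of 16 tested genes of lactate and pyruvate handling, 7 rose and 4 fell. Among those that rose were the lactate carriers Slc16a7 (from 7.64 to 25.1 CPM) and Slc16a3 (from 127 to 205 CPM), and the pyruvate dehydrogenase kinases Pdk3 and Pdk4 together with the opposing phosphatases Pdp1 and Pdp2. Pdk4, with 14 and 6 counts with DMSO, would not have passed the filter on low counts on its DMSO libraries alone. Pdk1 and Pdk2 were among those that fell.

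Of 13 regulators of glucose-responsive transcription, 3 rose and 9 fell. Mlxip and Mlx, partners in glucose sensing, fell by 0.80 and 0.74, while the hypoxia-inducible factor Epas1 rose by 1.05. Of 14 hypoxia-response genes outside glycolysis, 3 rose and 5 fell, with Adm up by 1.68 and Ddit4 down by 0.54 on the log2 scale. Of 14 genes of mitochondrial uptake and the first citrate cycle steps, 2 rose and 6 fell. Of 8 regulators of Pkm splicing, 4 fell and none rose: Hnrnpa1 by 0.60, Hnrnpa2b1, Nek2 and Ptbp1 each by 0.38. None of the 5 phosphofructokinase regulators passed. Gluconeogenesis and fructose use had 2 genes that rose and 3 that fell of 9, among them Slc37a4, the glucose 6-phosphate carrier of the endoplasmic reticulum, which fell by 1.11. Of 3 other hexokinase genes tested, Gckr rose from 0.108 to 0.997 CPM, on 26 and 14 counts in the Isx-9 libraries. It had 4 and 0 counts with DMSO and passed the filter on low counts only through its Isx-9 libraries. Gckr was not called without DMSO replicate 2 or without either Isx-9 library.

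After 6 days, values were summed over all cells of each organoid library. Slc2a1 lay within the range of the 3 libraries without Isx-9, 6 members lay above it and 3 below. The share of all genes outside that range was not counted, so nothing is read from these numbers. Levels are CPM of UMIs and ratios are Isx-9 over DMSO with a 95% interval for counting error. Over all 14801 genes with at least 100 UMIs in both libraries together, the median ratio was 1.31, and 31.1% of genes were at least 2-fold higher and 4.41% at least 2-fold lower. Of the members, 5 were at least 2-fold higher and 2 at least 2-fold lower, and since the same contrast chose them nothing is read from that count.

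Slc2a3 had 8, 10 and 11 UMIs in all in the wild-type, untreated reporter and DMSO libraries and 2622 in the Isx-9 library, or 0.0654, 0.0846 and 0.0955 CPM against 26.2 CPM. Its ratio was 274 (interval 153 to 550), and 849 when cells were thinned to 3000 UMIs, a value that rests on the 0.0128% of 7837 DMSO cells with a UMI (interval 0.000323% to 0.0711%). Ldhb stood at 0.654, 1.72 and 1.57 CPM in the 3 other libraries and at 108 CPM with Isx-9, a ratio of 69.0 (59.5 to 80.3), or 166 against the wild type. Both genes were thus near 0 in each library without Isx-9. Hk1 stood at 16.8, 11.6 and 12.1 CPM and at 37.1 CPM with Isx-9 (ratio 3.08, 2.89 to 3.28). Hk2 stood at 49.7, 41.1 and 50.4 CPM and at 139 CPM with Isx-9 (ratio 2.76, 2.68 to 2.85). Both hexokinases were higher at 6 days, whereas only Hk1 had been higher in the stem cells at 6 hours. The first are sums over all organoid cells and the second bulk counts of sorted cells, so cell mix and method differ along with time.

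Hk1 therefore made up 25.3%, 22.0% and 19.3% of hexokinase UMIs in the 3 other libraries and 21.04% with Isx-9, within their range. Ldhb made up 0.0349%, 0.0973% and 0.0881% of lactate dehydrogenase UMIs and 8.55% with Isx-9 (interval 8.39% to 8.70%). Ldha was at 1877, 1764 and 1783 CPM in the other libraries and at 1160 CPM with Isx-9, 1.54-fold lower than with DMSO. Pkm was at 1202, 1189 and 1186 CPM and at 1436 CPM with Isx-9, a ratio of 1.21, which is 0.923 of the median ratio of all genes, so the direction for Pkm turns with the reference.

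Slc2a5 stood at 3.97, 5.31 and 5.32 CPM in the other libraries and at 16.2 CPM with Isx-9 (ratio 3.04, 2.77 to 3.34). Slc5a1 stood at 79.9, 73.4 and 80.2 CPM and at 25.7 CPM with Isx-9, 3.11-fold lower than with DMSO (2.98 to 3.25). Slc2a2 stood at 4.32, 4.75 and 5.06 CPM and at 0.729 CPM with Isx-9, 6.94-fold lower (5.44 to 8.98). Slc2a1 stood at 52.3, 43.7 and 45.6 CPM and at 45.7 CPM with Isx-9, or 0.764 of the median ratio of all genes. Of the summed UMIs of the 5 transporters, Slc5a1 held 58.8% with DMSO and 22.5% with Isx-9, Slc2a3 0.0701% and 22.8%, and Slc2a5 3.91% and 14.1%. The summed level of 16 enterocyte markers was 1967 to 2668 CPM in the 3 other libraries and 507 CPM with Isx-9, and that of 21 enteroendocrine markers 2573 to 3473 CPM and 13328 CPM. These sums moved with the all-cell values of Slc5a1, Slc2a2 and Hk2, and their part in them was not tested.

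**Figure D2:**
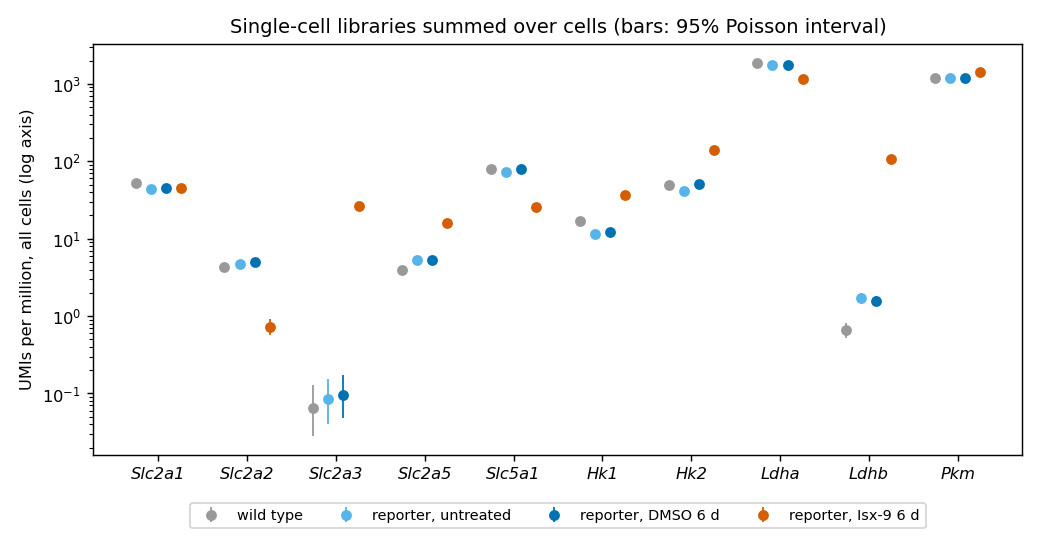
CPM of UMIs on a log axis of the 10 genes summed over all cells of the 4 single-cell libraries, with 95% Poisson intervals. The Isx-9 library stood at 26.2 for Slc2a3 and at 108 for Ldhb, and the other 3 libraries stood at 0.0654 to 0.0955 and at 0.654 to 1.72.

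By cell state, each transporter had its own distribution. Cells were grouped into 22 clusters without use of the members or the pathway genes, and a cluster was named only from fixed markers. Cluster 1, drawn as regenerative-like in the figures, is given by number, since its leading genes hold the enterocyte markers Fabp6 and Slc10a2 as well as the regenerative markers Sprr1a and Ly6d. Cluster 10, drawn as enteroendocrine progenitor-like, is given by number too. Ghrl leads it, and its leading genes hold the enteroendocrine markers Ghrl and Isl1 as well as the progenitor markers Insm1 and Neurog3. Cluster 17 is counted among the enteroendocrine-like cells. Its leading genes hold the progenitor markers Neurog3 and Neurod1 as well as the enteroendocrine markers Tac1, Chgb and Fev. In the libraries without Isx-9, Slc2a2 stood at 49.0 to 70.1 CPM in enterocyte-like cluster 9, at 15.2 to 17.4 CPM in cluster 1 and at most at 2.36 CPM in Paneth-like, goblet-like, tuft-like, cycling-like and enteroendocrine-like cells. Slc5a1 stood at 342 to 419 CPM in cluster 9 and at 292 to 464 CPM in cluster 11. It stood at 227 to 370 CPM in enteroendocrine-like cluster 13, which Gcg, Nts and Gip lead, against 15.9 to 31.1 CPM in enteroendocrine-like cluster 12, which holds Tph1, Chga and Tac1. In each of the 3 libraries the sodium cotransporter was lower in cluster 12 than in cluster 13. Cluster 13 was above cluster 9 in the wild type (370 and 342 CPM) and below it in the untreated reporter (231 and 349 CPM) and DMSO libraries (227 and 419 CPM). Slc2a5 stood at 31.3 to 40.6 CPM in cluster 9 and 11.3 to 21.6 CPM in cluster 11. It stood at 47.3 to 49.8 CPM in cluster 13, 29.6 to 42.7 CPM in cluster 10 and 4.37 to 8.65 CPM in cluster 12. Slc2a1 was highest in cluster 1 (145 to 174 CPM) and in the shallow enterocyte-like cluster 11 (166 to 229 CPM), and stood at 31.0 to 33.3 CPM in the Olfm4-led clusters 3 and 14. Cluster 11 had a median of 1899.5 UMIs per cell.

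Hk2 stood at 319 to 363 CPM in cluster 12, 232 to 269 CPM in cluster 13 and 251 to 318 CPM in cluster 10 of the libraries without Isx-9. The 2 enterocyte-like clusters differed, with Hk2 at 18.4 to 26.3 CPM in cluster 9 and at 68.9 to 134 CPM in the shallow cluster 11. Hk1 stood at 62.7 to 84.6 CPM in tuft-like cells, 45.4 to 64.5 CPM in cluster 12, 53.0 to 55.2 CPM in cluster 1 and 5.19 to 5.98 CPM in the Olfm4-led clusters. As a share of hexokinase UMIs, Hk1 reached 59.7% to 70.1% in tuft-like cells and 46.8% to 54.5% in enterocyte-like cluster 9, but 22.2% to 40.4% in enterocyte-like cluster 11. It stood at 5.84% to 6.96% in cluster 10, which Ghrl leads. Each range is over the same 3 libraries, and the ranges of the tuft-like cells and cluster 10 were far apart. Ldha was at 2765 to 3063 CPM in cluster 9 and 1870 to 2412 CPM in cluster 11 in the same 3 libraries. It was at 2704 to 3253 CPM in cluster 1 and 902 to 1071 CPM in Paneth-like cells there. Pkm was at 2150 to 2189 CPM in cluster 12, 1120 to 1172 CPM in Paneth-like cells and 1021 to 1094 CPM in the Olfm4-led clusters. Ldhb was at 3.099 to 6.61 CPM in tuft-like cells and at most at 3.08 CPM in the other named clusters without Isx-9.

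**Figure D3:**
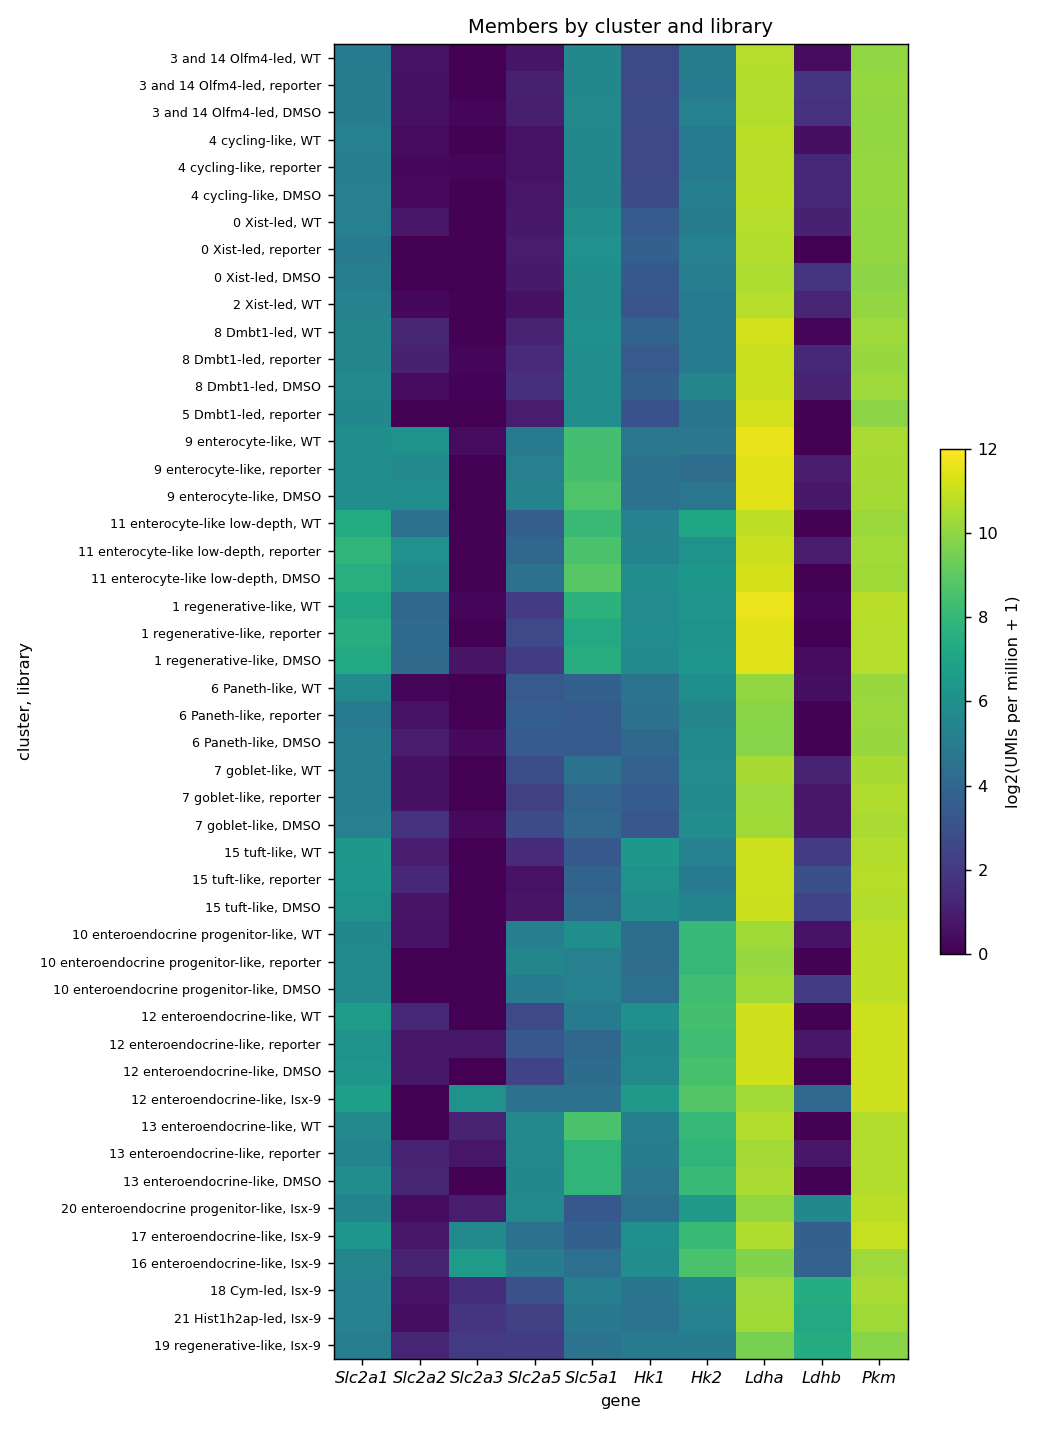
log2(CPM + 1) of the 10 genes (columns) in each cluster and library with at least 50 cells (rows). Slc2a3 stood at 50.0 to 95.9 CPM in the enteroendocrine-like clusters of the Isx-9 library, and Ldhb at 148 to 172 CPM in its clusters 18, 19 and 21.

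In the Isx-9 library, Slc2a3 and Ldhb were highest in different clusters. Slc2a3 stood at 95.9 CPM in enteroendocrine-like cluster 16 (led by Pcsk1n and Resp18), 67.4 CPM in cluster 12 and 50.0 CPM in enteroendocrine-like cluster 17 (led by Neurog3 and Tac1), and at 0.962 to 3.12 CPM in clusters 18 to 21. Ldhb stood at 172 CPM in unnamed cluster 18 (Cym, Ifitm1 and Ldhb lead it), 169 CPM in regenerative-like cluster 19 (Clu and Ly6a) and 148 CPM in unnamed cluster 21 (histone genes and Cym), at 46.8 CPM in enteroendocrine progenitor-like cluster 20 and at 11.9 to 16.2 CPM in the enteroendocrine-like clusters. Enteroendocrine-like cells were 47.0% of the cells of that library and held 94.7% of its Slc2a3 UMIs, 77.8% of its Hk2 UMIs and 3.74% of its Ldhb UMIs, against 32.5% of all its UMIs. Clusters 18 and 21 together were 39.6% of its cells and held 80.7% of its Ldhb UMIs and 4.16% of its Slc2a3 UMIs, against 52.4% of all its UMIs. In the DMSO library enteroendocrine-like cells were 4.04% of cells.

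At an equal depth of 3000 UMIs per cell, 23.5% of 2354 cells of cluster 16 had a Slc2a3 UMI and 0.560% of 3035 cells of cluster 18 did (44.4% and 2.45% without thinning, at median depths of 6948 and 12681 UMIs). For Ldhb the order was the opposite, with 3.31% of cluster 16 and 37.9% of cluster 18 (7.65% and 78.8% without thinning). Thinning left out 157 and 107 cells of these clusters. The genes thus ranked these clusters of 1 library in opposite order, although cluster 18 was the deeper.

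**Figure D4:**
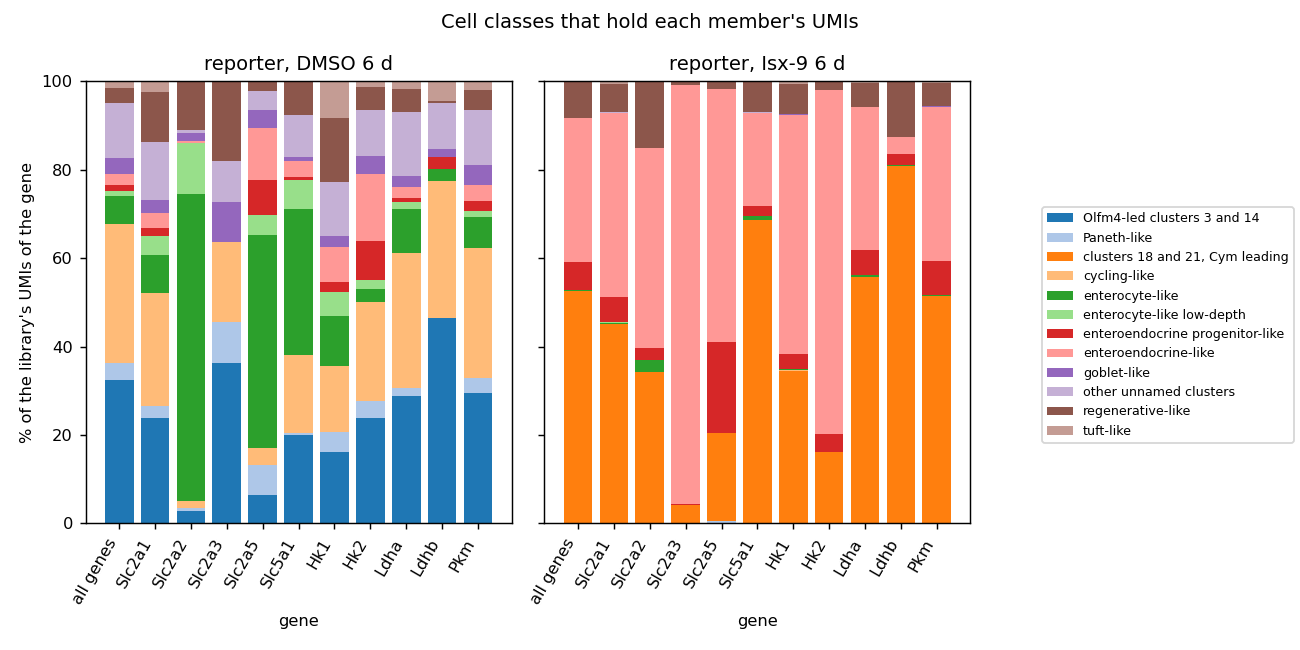
Share of each gene's UMIs that each cell class held in the DMSO and the Isx-9 library, beside the same for all genes. Enteroendocrine-like cells held 94.7% of the Slc2a3 and 77.8% of the Hk2 UMIs with Isx-9, and clusters 18 and 21 held 80.7% of the Ldhb UMIs.

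Within enteroendocrine-like cells (4428 cells with Isx-9 and 341 with DMSO), Hk2 stood at 333 CPM with Isx-9 and 316 CPM with DMSO (ratio 1.06, 0.985 to 1.13), beside its ratio of 2.76 over all cells. Hk1 stood at 61.6 and 39.4 CPM (ratio 1.56, 1.29 to 1.91). Slc2a3 stood at 76.2 CPM against 0 UMIs in 341 cells, at least 70.2-fold higher against a floor of 3 UMIs over the DMSO cells (1.08 CPM). The exact 95% interval of that ratio began at 57.1, and with cells thinned to 3000 UMIs the bound against the floor was 22.9-fold. Ldhb stood at 12.5 CPM against 0 UMIs, at least 11.5-fold higher against the same floor, with an interval that began at 9.30 and a bound of 3.23-fold after thinning. Since Ldhb stood at 148 to 172 CPM in other cells of the Isx-9 library, free RNA from them may be among its UMIs in enteroendocrine-like cells, and its part was not tested. Ldha stood at 1150 and 1817 CPM, 1.58-fold lower, and Pkm at 1539 and 1847 CPM, 1.20-fold lower. Slc2a1 (58.5 and 66.2 CPM) and Slc2a5 (28.5 and 26.0 CPM) had ratios whose intervals held 1. Slc2a2 had 33 and 3 UMIs. Slc5a1 stood at 16.7 and 124 CPM, 7.42-fold lower (ratio 0.135, or 0.204 with high doublet scores kept). Of 12653 genes with at least 100 UMIs in these cells, 19.8% were at least 2-fold higher and 4.08% at least 2-fold lower.

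These cells came from different clusters in the 2 libraries: clusters 12, 16 and 17 (and 3 cells of cluster 13) with Isx-9, and clusters 12 and 13 with DMSO. The Isx-9 cells thus hold cluster 17, which Neurog3 leads, while the 201 DMSO cells of cluster 10, with Neurog3 also among its leading genes, are left out. The ratios above therefore compare unlike groups of cells. Cluster 12 was the enteroendocrine-like cluster with over 50 cells of each of the 4 libraries (208, 208, 197 and 164 cells), and this comparison was added after the data were seen. Its Isx-9 cells were shallow, with a median of 1738.5 UMIs against 6235, 6937.5 and 7298 in the wild-type, untreated reporter and DMSO libraries, so no value at 3000 UMIs is given for them. There Hk1 stood at 64.5, 45.4 and 53.2 CPM in the wild-type, untreated reporter and DMSO libraries and at 86.3 CPM with Isx-9 (ratio to DMSO 1.62, 1.04 to 2.49). Hk2 stood at 355, 319 and 363 CPM and at 445 CPM with Isx-9 (ratio 1.23, 1.02 to 1.46). Slc2a3 had 0, 1 and 0 UMIs and then 25 UMIs with Isx-9, at least 30.8-fold above the floor of 3 UMIs in the DMSO cells (2.19 CPM), with an exact interval of the ratio that began at 23.3. Ldha was at 2208, 2271 and 2218 CPM and at 1297 CPM with Isx-9, 1.71-fold lower, while Pkm was at 2189, 2183 and 2150 CPM and at 2173 CPM. Slc2a1 was at 97.9, 69.9 and 75.1 CPM and at 108 CPM with Isx-9 (ratio 1.44, 0.971 to 2.09). Slc5a1 was at 31.1, 15.9 and 18.2 CPM and at 21.6 CPM with Isx-9 on 8 UMIs (ratio 1.18, 0.461 to 2.71), an interval that holds both lower and higher levels. Slc2a5 was at 5.31, 8.65 and 4.37 CPM and at 21.6 CPM with Isx-9, on 8 UMIs (ratio 4.93, 1.501 to 17.2).

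**Figure D5:**
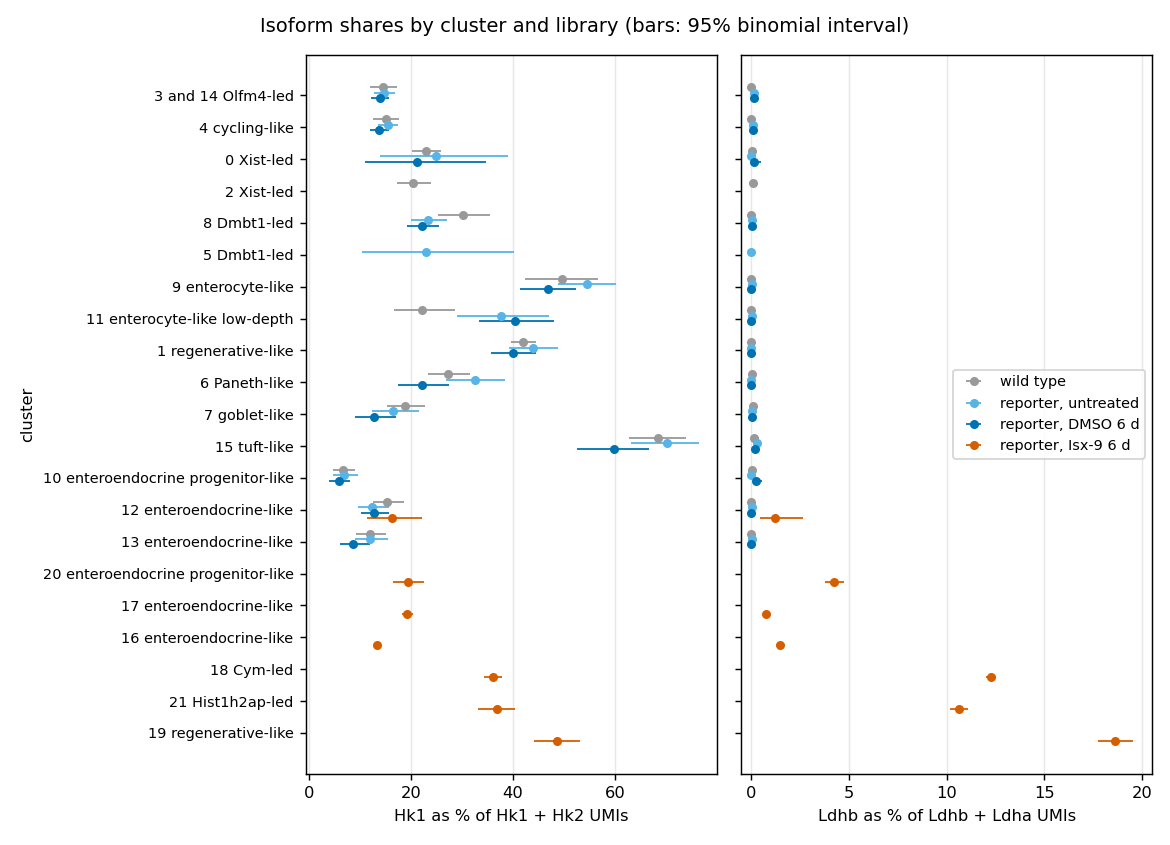
Hk1 as a percentage of Hk1 and Hk2 UMIs (left) and Ldhb as a percentage of Ldhb and Ldha UMIs (right) by cluster and library, with 95% binomial intervals. Ldhb shares were 10.6% to 18.6% in clusters 18, 19 and 21 of the Isx-9 library, and Hk1 shares were 59.7% to 70.1% in tuft-like cells without Isx-9.

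Isoform shares within the Isx-9 library also differed by cell state. Hk1 made up 13.5% of hexokinase UMIs in cluster 16, 19.3% in cluster 17 and 19.4% in cluster 20, and 36.1%, 48.6% and 36.8% in clusters 18, 19 and 21. Ldhb made up 1.48% and 0.763% of lactate dehydrogenase UMIs in clusters 16 and 17, 4.26% in cluster 20 and 12.3%, 18.6% and 10.6% in clusters 18, 19 and 21. Hence the 8.55% of the whole library averaged cells of low and of high share.

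The pathway genes that stand with the members in the single-cell data were counted over all cells in the same way. Of 104 genes with at least 100 UMIs, 11 were at least 2-fold higher and 8 at least 2-fold lower with Isx-9, with a median log2 ratio of -0.11 against 0.39 over all genes. Eno2 stood at 0.0347 CPM with DMSO and 2.49 CPM with Isx-9 (ratio 71.6, 27.6 to 265). Slc16a7 stood at 0.669 and 5.98 CPM (ratio 8.95) and Pdk3 stood at 18.8 and 52.6 CPM (ratio 2.80). Tkfc was 5.91-fold lower and Khk 2.67-fold lower, both of fructose use, and the gluconeogenic Pck1 13.6-fold lower, on 100 UMIs in all. Of 14 genes of mitochondrial uptake and the citrate cycle none was 2-fold higher or lower (median -0.48). Of 5 other facilitative carriers measured, 3 were at least 2-fold higher: Slc2a13 (4.28), Slc2a12 (2.68) and Slc2a10 (2.66), but Slc2a13 stood at 2.43 CPM in the wild type, above its 1.86 CPM with Isx-9. Hnrnpa1, which fell in the stem cells at 6 hours, stood at 440 CPM with DMSO and 610 CPM with Isx-9 at 6 days, a ratio of 1.39 beside the median of 1.31 over all genes.

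Over the 48 profiles of clusters and libraries, the genes most like each member by Pearson's r of log2(CPM + 1) were as follows. The profiles share libraries and depth, so r is a description. Tm4sf20 (0.90) was among the genes most like Slc5a1, and Slc2a2 was most like Reg3a (0.94) and Apoa1 (0.93). Slc2a1 was most like Mpp5 (0.92), Slc2a5 like Tmed4 (0.82) and Slc2a3 like the noncoding RNA Meg3 (0.81). Hk1 was most like Ccdc186 (0.90) and Hk2 like Rev3l (0.94). Pkm was most like Bnip3 (0.90), and P4ha1 and Bnip3l came next (0.87 and 0.86), all 3 of the list of hypoxia-response genes. Ldha was most like Fam162a (0.87), with Cebpg and Gapdh next (both 0.86), and Ldhb like Cym (0.93). Between members, r was 0.73 for Hk1 with Slc2a1 and for Hk2 with Pkm, 0.69 for Slc2a2 with Slc5a1, 0.55 for Hk1 with Hk2, 0.53 for Slc2a3 with Ldhb and -0.44 for Ldha with Ldhb.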

How the data were processed

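Per the submitters' processing notes, tools used were Trim Galore 0.6.4, HISAT2, HTSeq 0.12.4 and Cell Ranger 3.1.0 with GRCm38. The authors deposited whole-number counts per gene for the bulk libraries and UMI counts per gene and cell for the single-cell libraries. Which strand setting was used in counting is not given in the sources used here. Of the series, 6 ATAC-seq samples were not analysed here.

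Bulk counts were tested with edgeR 4.0.16 (R 4.3.3; filterByExpr, TMM, quasi-likelihood F test, Benjamini-Hochberg adjustment over 17418 genes, adjusted p threshold 0.05). On simulated data, 34.0%, 84.0% and 96.5% of 200 genes changed 1.5-, 2- and 4-fold were recovered for Isx-9 against DMSO in 17058, 17038 and 17040 genes.

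Barcodes under 500 genes or under 1000 UMIs, or above 20% mitochondrial UMIs, were dropped. Scrublet's automatic limit marked 1, 0, 0 and 863 cells in the 4 libraries, so the 6% of cells with the highest doublet score were removed from each. Cells were clustered with scanpy 1.11.5 (2000 variable genes, 30 components, 15 neighbours, resolution 1) without the members or pathway genes. Clusters were named from fixed markers and rebuilt names can differ from the study's. Sums were set over total UMIs. Intervals are exact, at 95%, and cover counting error only.

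The members and lists were chosen with earlier results of these data known. Named pathway genes are, of each list, up to 4 past the bulk threshold by size of change and up to 3 in single cells by size of ratio (at least 100 UMIs), and the genes most like each member, and others named were chosen after their values were seen. Alternatives covered scaling, filter, test, replicate block, left-out libraries, doublets, mitochondrial limit, thinning and clustering. Some items are not reported here.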

Additional observations from a re-analysis of the deposited data

How the results depend on the processing

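With library size alone in place of TMM, the median log2 difference of all genes moved from 0.02 to 0.14 and the split of calls from 4755 higher and 3488 lower to 5475 higher and 2095 lower, with 0 members and 23 pathway genes lower in place of 1 and 39. Without the low-count filter 0 members were lower. Leaving out each library in turn gave 3599 to 4536 genes higher and 2062 to 3090 lower, 3 members higher each time and 0 to 1 lower, and 22 to 24 pathway genes higher and 23 to 35 lower. With a replicate block, 4723 genes were higher and 3408 lower, with 3 and 1 members and 30 and 37 pathway genes. Libraries that share a replicate number share only that number, with a correlation of deviations of 0.0126. DESeq2's Wald test called 4344 higher and 2779 lower. In single cells, the Slc5a1 ratio in enteroendocrine-like cells was 0.135, and 1.18 with cluster 12 alone, where 8 UMIs and an interval of 0.461 to 2.71 show no direction. With cells thinned to 3000 UMIs, 2 members in place of 1 were at least 2-fold lower in these cells, and the lower bounds for Slc2a3 and Ldhb were 22.9-fold and 3.23-fold. At Leiden resolution 0.5 the enterocyte-like DMSO levels of Slc5a1, Slc2a2 and Slc2a5 were 258, 29.3 and 18.96 CPM. The cause of these differences was not tested. With 2 libraries a group an exact permutation test cannot go below p = 0.333, and 1 single-cell library per condition allows no test.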
